A study of Danio rerio with 24 samples.

Results

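Livers of adult zebrafish (Danio rerio) kept for 48 h in water with mercuric chloride (HgCl2, an inorganic mercury salt) were set against livers of control fish of the same time, to see which transcripts differed after this time of a sublethal exposure. The comparison takes the 3 arrays labelled as treated for 48 h and the 3 arrays labelled as control at 48 h, which are 6 of the 24 arrays of the series. All 16340 probes were tested. In the whole series, control and exposed livers were taken at 8, 24, 48 and 96 h, with 3 arrays in each of 8 groups, and the arrays of the other times served here for the estimate of spread and for values set side by side. The fish came from a farm, were 6 months to 1 year old, and were kept at 1 fish per 200 ml and 27 °C with water and chemical renewed daily. Exposed fish received 200 µg/L HgCl2 and control fish none, so the comparison holds 1 dose. Each array carried liver RNA of 4 fish pooled, and neither the sex of the fish in a pool nor a strain is given. Pools hide differences between fish, and p-values measure the spread between pools. Liver RNA carried the dye Cy5 and a common reference, a pool from wild-type males and females, carried Cy3 on every array. No dye swap was made, so a dye effect of a probe is shared by both groups.

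The liver makes most plasma proteins, among them complement and the acute phase proteins that rise in inflammation, and folds them in the endoplasmic reticulum before secretion. Inorganic mercury binds the sulfhydryl groups of cysteines. Cells meet it with glutathione, the thioredoxin system and metal-binding proteins. Interferons induce a set of genes in many cell types, including the subunits that turn the proteasome, which degrades proteins tagged with ubiquitin, into the immunoproteasome that prepares peptides for antigen presentation.

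All values are log2 ratios of Cy5 over Cy3 after background correction and loess normalization, given for replicates 1, 2 and 3 in this order. A difference is HgCl2 minus control on this log2 scale, ± the standard error of the limma fit, with n = 3 arrays in each group. A probe is called at a Benjamini-Hochberg adjusted p under 0.05 over all probes. Markers of the labelled tissue were looked at first. All 13 hepatocyte genes measured, among them fabp10a, a fatty acid binding protein of the liver, and the transferrin gene tfa, were above background on all 6 arrays. Among these hepatocyte genes, 5 reached the scanner's limit on at least 1 array. The 7 intestine genes and the 4 islet genes measured were also all above background on all 6 arrays. Presence above background therefore does not identify the tissue. Median Cy5 signals of the 6 arrays lay between 291 and 793, and the share of spots above background ran from 74.4% to 94.9% for the liver dye and from 33.6% to 79.1% for the reference. Control replicate 2 had the lowest share in both dyes. Log ratios correlated between arrays of one group with r between 0.465 and 0.617 in controls and between 0.589 and 0.598 in exposed livers, and across the groups with r between -0.0036 and 0.24. In the reference channel, with each probe centred, the pairs across groups gave r between -0.234 and -0.071, pairs of exposed arrays 0.089 to 0.430 and pairs of control arrays -0.327 to 0.411. Every pair across groups was thus negative and every pair of exposed arrays positive, so differences in the reference channel partly followed the groups. Pairs of control arrays had both signs. Reference values stand beside some of the genes they touch, and their cause was not tested. The number of arrays limits the precision of every value.

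After 48 h, 864 probes (5.29%) were higher and 550 (3.37%) lower in exposed livers. The median size was 1.03 among the probes that rose and -0.83 among those that fell. Rises reached further, since 457 rises and 172 falls exceeded 1 and 103 rises and 26 falls exceeded 2 on the log2 scale. Of the 5355 genes with 1 symbol, each taken by its brightest probe, 277 (5.17%) rose and 193 (3.6%) fell, and the median of all of them was 0.019. The counts of every gene list below are to be read beside these shares. The 3 exposed values lay above all 3 control values for 2599 probes (15.9%) and below them for 2255 (13.8%). Of the called probes, 840 that rose and 539 that fell had groups that did not overlap. The balance of directions depended on the scaling, as the authors' value table, which carries no loess, gave 407 higher and 438 lower, and the Cy5 channel alone 642 and 802. The number of calls turned on single arrays. Leaving out HgCl2 replicate 1 left 368 higher and 235 lower, without control replicate 2 it was 412 and 248, and without control replicate 1 it was 442 and 287.

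**Figure D1:**
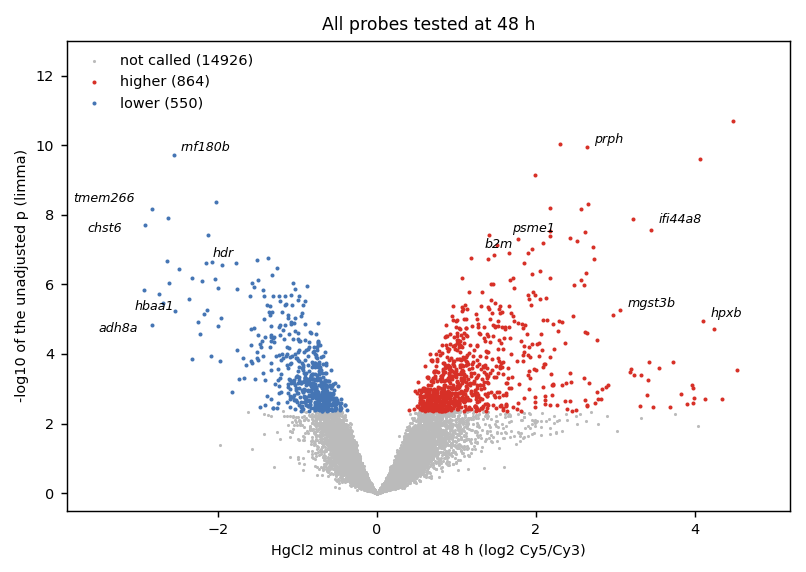
Each point is 1 of 16340 probes, by its difference at 48 h (HgCl2 minus control, log2, x axis) and the -log10 of its unadjusted limma p (y axis), with 864 higher probes in red and 550 lower ones in blue. The points farthest right exceed 4 and those farthest left stay above -3, with hpxb at 4.1 and chst6 at -2.92.

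Plasma proteins of defence and of heme and copper transport were among the largest rises. hpxb, which encodes a hemopexin that binds free heme, had log ratios of -2.08, -2.71 and -1.94 in controls and 3.45, 1.37 and 0.77 in exposed livers (4.1 ± 0.71, adjusted p = 0.00125), the largest rise of a named gene. All 3 exposed values lay far above the control values, with HgCl2 replicate 1 the highest. cp, the gene of the copper-carrying ferroxidase ceruloplasmin, went from -0.85, -0.83 and 0.024 to 1.6, 0.72 and 1.29 (1.76 ± 0.38, adjusted p = 0.00698). Complement component C3, whose cleavage drives the complement cascade, was measured by 3 genes. c3a.3 stood at -1.33, -1.23 and -0.035 in controls and 1.98, 1.78 and 1.06 in exposed livers (2.47 ± 0.42, adjusted p = 0.001). c3a.1 moved from -0.11, -0.024 and 0.5 to 2.51, 1.96 and 2.52 (2.21 ± 0.39, adjusted p = 0.00139), with at least 1 spot at the scanner's limit. The groups did not overlap for either gene, and control replicate 3 was the highest control in both. c3a.2 (1.39 ± 0.38, adjusted p = 0.029) and c8g, a chain of the terminal complement complex (0.84 ± 0.21, adjusted p = 0.0184), were called too. In all, 4 of 5 complement genes rose and 0 fell, with a median of 1.39 against 0.019 over all genes. The member that was not called was the mannose-binding lectin gene mbl2 (-0.35, adjusted p = 0.448). Of acute phase genes, 4 of 12 rose and 0 fell (median 0.6). Of genes that bind or carry metals, 4 of 19 rose (21.1%) and 2 fell (10.5%), beside 5.17% and 3.6% of all genes. The metal list includes hpxb and cp. c3a.2 did not pass without control replicate 1 or 2 or HgCl2 replicate 1, 2 or 3 (adjusted p = 0.0553 to 0.121), and c8g did not pass without control replicate 3 or HgCl2 replicate 2 or 3 (adjusted p = 0.0515 to 0.0849). Without 1 array, 2 to 3 complement genes and 2 to 4 acute phase genes were called higher, the fewest for complement without HgCl2 replicate 2 or 3 and for the acute phase without control replicate 1. Tested on the deposited value table, 2 genes of each of these lists were higher.

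Iron genes moved both ways. fth1a, a ferritin chain that stores iron, rose from 0.27, 0.36 and 0.011 to 4.13, 1.48 and 2.1 (2.36 ± 0.68, adjusted p = 0.0349). slc11a2, an iron importer, fell from 0.5, 0.38 and 0.56 to -0.0061, -0.32 and -0.18 (-0.65 ± 0.17, adjusted p = 0.0199), while its other probe gave -0.26 and was not called. ireb2, a protein that binds iron-responsive elements of mRNAs, was called lower (adjusted p = 0.0376) with 0.48, 0.76 and 0.24 against 0.051, -0.29 and -0.32, but was well above background on 2 control arrays and on 0 exposed arrays, so its fall has no measured size. The zinc transporter slc39a13 rose (1.71 ± 0.52, adjusted p = 0.0438). None of these calls withstood the loss of every array: fth1a did not pass without control replicate 1, 2 or 3 or HgCl2 replicate 1 (adjusted p = 0.0771 to 0.214), slc39a13 without control replicate 1, 2 or 3 or HgCl2 replicate 1 or 3 (adjusted p = 0.0515 to 0.223), slc11a2 without control replicate 1 or 3 or HgCl2 replicate 2 (adjusted p = 0.0515 to 0.0745), and ireb2 without control replicate 1 or 2 or HgCl2 replicate 2 or 3 (adjusted p = 0.0904 to 0.173). Without 1 array, 2 to 4 metal genes were called higher and 0 to 2 lower, with 2 higher without control replicate 1, 2 or 3 or HgCl2 replicate 1, and 0 lower without control replicate 1 or HgCl2 replicate 2.

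Several genes that interferons induce rose in exposed livers. ifi44a8, of a family of interferon-induced genes, lay within -0.31, -0.25 and -0.22 in controls and at 3.38, 3.48 and 2.7 in exposed livers, an average difference of 3.44. si:ch211-217k17.11, whose role is not described here, had a like pattern, with -0.34, 0.078 and -0.46 against 2.92, 3.2 and 2.8 (3.22 ± 0.36, adjusted p = 1.67e-05). jak1, a kinase that relays cytokine and interferon signals, rose from -0.77, -0.56 and -0.53 to 0.84, 0.76 and 0.66 (1.37 ± 0.28, adjusted p = 0.00453). Its other probe gave 0.94 and was not called. stat2, a transcription factor that acts downstream of interferon receptors, stood at -0.63, -0.56 and -0.49 in controls and 1.05, 1.03 and 0.97 in exposed livers (1.58 ± 0.36, adjusted p = 0.00878). For jak1 and stat2 the arrays of one group lay close together and the groups were well apart. Neither was called in Cy5 alone (0.93, adjusted p = 0.133 for jak1 and 1.29, adjusted p = 0.128 for stat2). ifi27.2, another interferon-induced gene, was uneven, at -0.74, -0.5 and 0.26 against 1.27, 4.4 and 1.99 (2.88 ± 0.74, adjusted p = 0.02), with HgCl2 replicate 2 far above the others. socs3b, an inhibitor of cytokine signalling, had 1.89 ± 0.45 (adjusted p = 0.0127), but 0.22 (adjusted p = 0.95) in the authors' value table, where the call was lost. One gene of the list fell: gbp4, a guanylate-binding protein, from -0.32, -0.24 and -0.36 to -1.81, -1.48 and -1.9 (-1.43 ± 0.22, adjusted p = 0.000432), and its channels moved by -0.47 in Cy5 and 0.95 in Cy3, so the reference carried the larger part. Of 21 genes of the interferon and JAK-STAT list, 5 rose and 1 fell, 18 had a positive difference and the median was 0.4, which was 0.22 in the authors' value table and 0.13 in Cy5 alone. ifi27.2 did not pass without control replicate 1 or 2 or HgCl2 replicate 2 (adjusted p = 0.072 to 0.107), nor did socs3b without control replicate 1 or HgCl2 replicate 1 (adjusted p = 0.0719 to 0.0739). Without control replicate 1, the number of higher members was 3.

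Some genes whose products make and load peptides for antigen presentation rose as well. psme1 and psme2 encode the activator that caps the proteasome. psme1 had values of -0.46, -0.012 and -1.14 in controls and 1.58, 2.45 and 1.63 in exposed livers, and psme2 had 0.082, 0.026 and 0.077 and 0.78, 0.91 and 1.27 (0.92 ± 0.23, adjusted p = 0.0173). psmb8a, a catalytic subunit of the immunoproteasome, was at -0.15, -0.23 and -0.00067 in controls and 1.34, 1.15 and 0.97 in exposed livers. None of these exposed values reached down to the controls. Of 8 genes of the immunoproteasome and its activators, 3 rose and 0 fell, all 8 differences were positive, and the median was 0.48. The call of psme2 was lost without control replicate 1 or 2 or HgCl2 replicate 3 (adjusted p = 0.0509 to 0.0689). For the core particle of the standard proteasome the median was similar, 0.52 over 7 genes, but limma called 0 (5 at an unadjusted p under 0.05). The exposed values lay above all controls for 6 of these 7 genes, beside 15.9% of all probes. In Cy5 alone the medians were apart, at 0.14 for the core particle and 0.64 for the immunoproteasome list. The highest member of the core particle list, the catalytic subunit psmb5, stood at -0.26, -0.081 and 0.14 against 1.38, 0.52 and 1.3 (1.14 ± 0.39, adjusted p = 0.0707). b2m, the light chain of MHC class I molecules, was tight within groups, with -0.28, 0.16 and -0.03 in controls and 1.81, 1.84 and 1.88 in exposed livers (1.89 ± 0.24, adjusted p = 7.08e-05). Its relative b2ml (0.9 ± 0.24, adjusted p = 0.025), the peptide-loading protein tapbp.1 (1.38 ± 0.33, adjusted p = 0.0133) and the chaperone canx (1.48 ± 0.26, adjusted p = 0.00149) were called as well, giving 4 of 13 genes of antigen presentation higher, 0 lower and a median of 0.29. b2ml did not pass whichever array was left out (adjusted p up to 0.0809, without HgCl2 replicate 1), and tapbp.1 not without HgCl2 replicate 2 (adjusted p = 0.0614). The channels of tapbp.1 moved by 0.69 in Cy5 and -0.69 in Cy3. Without HgCl2 replicate 2, 2 genes of antigen presentation were called, and in Cy5 alone 1 was higher and 1 lower.

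**Figure D2:**
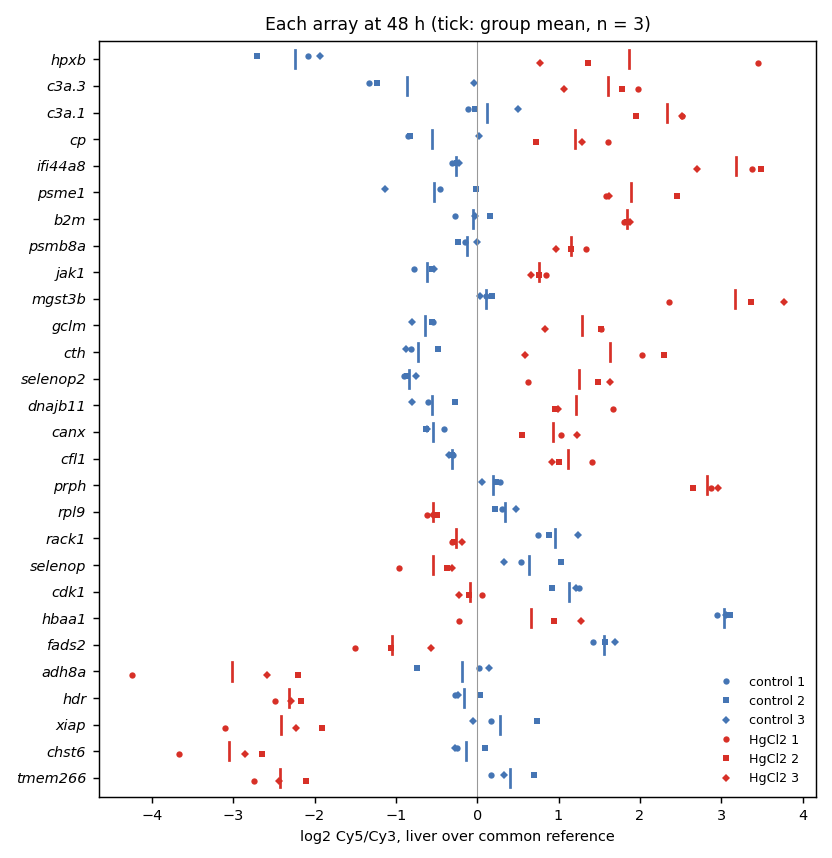
Log2 Cy5 over Cy3 (x axis) on each of the 6 arrays for 28 named genes (rows), controls in blue and exposed livers in red, with marker shapes for replicates 1 to 3 and a tick at each group mean (n = 3). In every row the groups are apart, for example psme1 at -0.46, -0.012 and -1.14 in controls and 1.58, 2.45 and 1.63 in exposed livers.

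Some genes of folding and quality control in the endoplasmic reticulum rose. dnajb11, a co-chaperone of its lumen, rose from -0.61, -0.27 and -0.8 to 1.67, 0.96 and 1.0 (1.77 ± 0.31, adjusted p = 0.00139). edem1, which hands misfolded glycoproteins to degradation, rose from -0.22, 0.05 and -0.19 to 2.03, 1.15 and 1.18 (1.57 ± 0.26, adjusted p = 0.000862), with channel differences of 0.63 in Cy5 and -0.94 in Cy3. canx, the lectin chaperone calnexin, was at -0.4, -0.63 and -0.61 in controls and 1.03, 0.55 and 1.22 in exposed livers. These 3 genes kept their calls whichever array was left out. However, edem1 was not called in the authors' value table (adjusted p = 0.365) or in Cy5 alone (adjusted p = 0.229). The call of canx was lost in Cy5 alone too (adjusted p = 0.263). The stress-induced sdf2l1 (1.7 ± 0.41, adjusted p = 0.0138) and the calreticulin gene calr3a (0.99 ± 0.24, adjusted p = 0.0135) were higher too. So were hyou1, a large chaperone (1.63 ± 0.44, adjusted p = 0.0254), syvn1, a ubiquitin ligase of the membrane (1.05 ± 0.30, adjusted p = 0.0339), and herpud1, a partner of that ligase (0.57 ± 0.17, adjusted p = 0.0404). The latter 3 were named after their values were seen. atf6, a sensor of unfolded proteins, fell from 0.88, 0.84 and 0.37 to -0.017, -0.19 and -0.1 (-0.8 ± 0.20, adjusted p = 0.0184). In total, 8 of 35 genes rose and 1 fell, with a median of 0.33. The rises include canx, which was also counted under antigen presentation. This balance depended on the scaling, as the authors' value table gave 3 higher and 2 lower and Cy5 alone 2 higher and 2 lower, with medians of 0.24 and 0.26. These calls leaned on HgCl2 replicate 1, which had the highest value for dnajb11, edem1, sdf2l1, calr3a, hyou1, syvn1 and herpud1. Without it 3 members were called higher, and without control replicate 1 or 2 it was 5. calr3a did not pass without HgCl2 replicate 1 (adjusted p = 0.0809), sdf2l1 without control replicate 3 or HgCl2 replicate 1 (adjusted p = 0.0571 to 0.0637), hyou1 without control replicate 1 or 2 or HgCl2 replicate 1 (adjusted p = 0.0778 to 0.136), syvn1 without control replicate 1, 2 or 3 or HgCl2 replicate 1 (adjusted p = 0.0697 to 0.188), herpud1 without control replicate 1 or 2 or HgCl2 replicate 1 or 2 (adjusted p = 0.0709 to 0.193), and atf6 without control replicate 1 or 2 or HgCl2 replicate 2 (adjusted p = 0.0577 to 0.0819). Among chaperones of the cytosol and mitochondria, 3 of 33 rose (9.09%) and 1 fell (3.03%), beside 5.17% and 3.6% of all genes. Without 1 array, 0 to 4 of them rose (0 without control replicate 2 or HgCl2 replicate 1). hspa8, the constitutive HSP70, rose by 0.8, adjusted p = 0.0446, stip1, which joins HSP70 to HSP90, by 0.92, adjusted p = 0.0101, and ahsa1a, an activator of HSP90, fell (-0.91, adjusted p = 0.014). hspa8 did not pass without control replicate 1, 2 or 3 or HgCl2 replicate 1 or 2 (adjusted p = 0.0881 to 0.152), stip1 without control replicate 2 or HgCl2 replicate 1 (adjusted p = 0.0689 to 0.0706), and ahsa1a without control replicate 2 or HgCl2 replicate 1 (adjusted p = 0.0548 to 0.0629).

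Thiol metabolism changed in several enzymes. mgst3b, a microsomal glutathione transferase, was level in controls at 0.1, 0.18 and 0.033 and stood at 2.36, 3.37 and 3.77 in exposed livers (3.06 ± 0.51, adjusted p = 0.000798). gclm, the regulatory subunit of the enzyme that starts glutathione synthesis, rose from -0.55, -0.56 and -0.8 to 1.52, 1.52 and 0.84 (1.93 ± 0.41, adjusted p = 0.00574). chac1, which degrades glutathione, rose from -2.73, -2.54 and -1.46 to -0.0085, -0.52 and -1.14 (1.68 ± 0.35, adjusted p = 0.00525). For all 3 genes the exposed arrays were above every control. txnrd3, a thioredoxin reductase, had 0.85, -0.98 and -0.17 against 3.41, 1.58 and 1.05 (2.12 ± 0.60, adjusted p = 0.0334), so that control replicate 1 came close to the lowest exposed array. The transferase gstp1.2 was at 1.02, 0.77 and 0.87 and 1.51, 2.13 and 3.13 (1.37 ± 0.43, adjusted p = 0.0495). Of 12 genes of glutathione and thioredoxin, 5 rose, 0 fell and 11 were positive, with a median of 0.55. txnrd3 did not pass without control replicate 2 or 3 or HgCl2 replicate 1 (adjusted p = 0.0682 to 0.208), nor gstp1.2 without control replicate 1, 2 or 3 or HgCl2 replicate 2 or 3 (adjusted p = 0.0856 to 0.201). Without control replicate 2 or 3, 3 members were called, and tested on the deposited value table it was 3 too. cth, which makes cysteine from cystathionine, rose from -0.82, -0.48 and -0.88 to 2.03, 2.3 and 0.59 (2.37 ± 0.46, adjusted p = 0.00313), with HgCl2 replicate 3 the lowest exposed array. The selenium-carrying proteins of the plasma went in opposite directions: selenop2 rose from -0.9, -0.87 and -0.75 to 0.62, 1.49 and 1.63 (2.09 ± 0.36, adjusted p = 0.00121), and selenop fell from 0.54, 1.03 and 0.33 to -0.96, -0.37 and -0.31 (-1.18 ± 0.25, adjusted p = 0.00603). Both pairs of groups were apart.

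Some genes of glucose output rose. slc37a4a, which carries glucose 6-phosphate into the endoplasmic reticulum, moved from -0.88, -0.92 and -0.46 to 0.72, 1.26 and 0.49 (1.58 ± 0.28, adjusted p = 0.00156). pck1, the enzyme that commits oxaloacetate to glucose, was at -5.27, -4.5 and -2.53 in controls and -2.18, -0.38 and -1.76 in exposed livers (2.66 ± 0.67, adjusted p = 0.0173). pcxb, a pyruvate carboxylase, rose on both its probes (1.53 ± 0.43, adjusted p = 0.0294, and 1.08 on the other). The controls of pck1 were widely spread, with control replicate 3 the highest. igfbp1a, a binding protein for insulin-like growth factors, rose from -3.32, -3.52 and -1.52 to -0.94, -0.83 and -1.73 (1.62 ± 0.48, adjusted p = 0.0403), where control replicate 3 lay above HgCl2 replicate 3, so the groups overlapped. gpt, an alanine aminotransferase, rose by 0.82, adjusted p = 0.0435, with channel differences of 0.19 in Cy5 and -0.64 in Cy3. In the list, 7 of 21 genes rose and 2 fell, and the median was 0.58. Few of these calls stood whichever array was left out. slc37a4a kept its call throughout, pck1 did not pass without control replicate 1 or 2 or HgCl2 replicate 2 (adjusted p = 0.0759 to 0.0981), pcxb without control replicate 1, 2 or 3 or HgCl2 replicate 2 or 3 (adjusted p = 0.0517 to 0.131), igfbp1a without control replicate 1 or 2 or HgCl2 replicate 1 or 2 (adjusted p = 0.118 to 0.193), and gpt without control replicate 1 or 2 or HgCl2 replicate 1 or 2 (adjusted p = 0.106 to 0.2). Without 1 array the count of higher members ran from 1 to 6: it was 1 without control replicate 2, 2 without HgCl2 replicate 2 and 3 without control replicate 1 or HgCl2 replicate 1. Tested on the deposited value table, 3 were higher and 1 lower, with a median of 0.41, and in Cy5 alone the median was 0.32. The list also counts nr3c1, described with the ovary markers.

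Enzymes of lipids, alcohols and foreign compounds gave some of the largest single changes without a common direction. acat2, an acetyl-CoA acetyltransferase, rose from -0.24, -0.53 and -0.87 to 2.18, 2.36 and 2.12 (2.77 ± 0.53, adjusted p = 0.00281). fads2, the desaturase of polyunsaturated fatty acids, fell from 1.43, 1.57 and 1.69 to -1.51, -1.06 and -0.57 (-2.61 ± 0.38, adjusted p = 0.000253). decr2, a peroxisomal enzyme that breaks down unsaturated fatty acids, rose (1.08 ± 0.24, adjusted p = 0.00833). In synthesis of fatty acids and triglycerides, fads2 was the only called gene of 19, and in cholesterol and bile acid synthesis acat2 was the only one of 14. adh8a, an alcohol dehydrogenase, fell from 0.028, -0.74 and 0.14 to -4.25, -2.21 and -2.59 (-2.82 ± 0.50, adjusted p = 0.00145). HgCl2 replicate 1 was the lowest array for fads2 and adh8a, and both kept their calls without it. In Cy5 alone fads2 was not called (-2.33, adjusted p = 0.342). cyp1a, the cytochrome P450 induced through the aryl hydrocarbon receptor, fell on both probes (-1.23 ± 0.33, adjusted p = 0.026, and -1.5 on the other), but the brighter probe did not pass without control replicate 1, 2 or 3 or HgCl2 replicate 1 (adjusted p = 0.0528 to 0.155). amd1, which supplies the building block of polyamines, rose by 1.39, adjusted p = 0.000675 on its brightest probe, while its other probes gave -0.28, 0.053 and 1.07, of which the last was called. mat1a, which makes S-adenosylmethionine in the liver, rose by 1.08, adjusted p = 0.0272, and did not pass without control replicate 1 or 2 or HgCl2 replicate 1 or 2 (adjusted p = 0.0546 to 0.118). Of the amino acid and one-carbon list, 4 of 34 rose and 0 fell (median 0.26), a count of 2 to 6 without 1 array, with 2 without control replicate 1 or 2 or HgCl2 replicate 1 or 2.

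Cytoskeletal genes rose in part. prph, the intermediate filament protein peripherin, which is best known from neurons, had the smallest p of any named gene: 0.28, 0.23 and 0.057 in controls against 2.88, 2.65 and 2.96 in exposed livers (2.64 ± 0.22, adjusted p = 6.16e-07). cfl1, the actin-severing cofilin, rose from -0.29, -0.3 and -0.35 to 1.41, 1.01 and 0.92 (1.43 ± 0.23, adjusted p = 0.000527), with channel differences of 0.67 in Cy5 and -0.76 in Cy3. actb1, a cytoplasmic beta-actin, went from 0.15, -0.73 and -0.51 to 2.39, 0.71 and 1.33 (1.84 ± 0.39, adjusted p = 0.00553). The beta-actin control spots, which were in no test, had a median log ratio of 0.0111 to 0.738 on the control arrays and 0.861 to 1.598 on the exposed ones. rac1a, a small GTPase of the cell edge, rose (1.1 ± 0.24, adjusted p = 0.00654) with channel differences of 0.46 in Cy5 and -0.64 in Cy3, and actc1b, a muscle-type actin, rose too (1.38 ± 0.33, adjusted p = 0.0142). ptk2ab, a focal adhesion kinase, fell from -0.39, -0.25 and -0.14 to -1.11, -1.05 and -1.16 (-0.85 ± 0.16, adjusted p = 0.00199), but was not called in Cy5 alone (-0.52, adjusted p = 0.248). Of 44 genes of actin and motility, 7 rose, 2 fell and the median was 0.3, against 4 higher, 1 lower and 0.2 in the authors' value table. HgCl2 replicate 1 was the highest array for cfl1, actb1, rac1a and actc1b. Without it 2 members were called higher and 1 lower, without control replicate 2 it was 3 and without control replicate 3 it was 4. rac1a did not pass without HgCl2 replicate 1 (adjusted p = 0.0505), and actc1b did not pass without control replicate 2 or HgCl2 replicate 1 (adjusted p = 0.0718 to 0.102).

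Some genes of ribosomal proteins fell. rpl9, of the large subunit, had 0.31, 0.22 and 0.48 in controls and -0.62, -0.49 and -0.54 in exposed livers (-0.89 ± 0.13, adjusted p = 0.000289). rps20, of the small subunit, went from 0.53, 0.43 and 0.69 to -0.5, -0.32 and -0.53 (-1.0 ± 0.16, adjusted p = 0.000508). rack1, a scaffold on the small subunit, fell from 0.75, 0.88 and 1.24 to -0.31, -0.29 and -0.18 (-1.22 ± 0.19, adjusted p = 0.000546), and rpl34 fell less (-0.74 ± 0.15, adjusted p = 0.00336). The groups were apart for these 4 genes. Of 20 ribosomal proteins, 6 fell and 0 rose, 4 were positive, and the median was -0.31, with 4 to 6 members called lower without 1 array (4 without control replicate 3 or HgCl2 replicate 1). Both values moved with the scaling: median centring in place of loess gave 11 lower and a median of -0.69, the authors' value table gave 10 and -0.7, and Cy5 alone 4 and -0.083. Among translation factors, eif4a1b, the RNA helicase of initiation, fell from 0.42, 0.3 and 0.33 to -0.95, -0.58 and -0.77 (-1.12 ± 0.19, adjusted p = 0.000962). eif4g2b, a scaffold for initiation without a cap, rose (1.12 ± 0.25, adjusted p = 0.00822), and did not pass without HgCl2 replicate 1 (adjusted p = 0.0657). That list had 2 genes higher (5.4%) and 3 lower (8.1%) of 37, beside 5.17% and 3.6% of all genes. The counts became 0 to 3 and 1 to 3 without 1 array (0 higher without HgCl2 replicate 1, and 1 lower without control replicate 1 or 2 or HgCl2 replicate 2 or 3). None of 35 genes of the nucleolus was called at the gene's brightest probe by limma, although 5 had an unadjusted p under 0.05, and their median was -0.13.

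The largest falls of named genes were spread over unrelated functions. chst6, a sulfotransferase of carbohydrates, fell from -0.25, 0.1 and -0.27 to -3.66, -2.65 and -2.86 (-2.92 ± 0.33, adjusted p = 2.32e-05). tmem266, a membrane protein, was at 0.17, 0.69 and 0.34 in controls and -2.74, -2.1 and -2.44 in exposed livers. slc22a23, an orphan organic ion carrier, fell from 0.0016, 0.51 and 0.37 to -2.62, -1.78 and -2.64 (-2.64 ± 0.35, adjusted p = 9.62e-05). For all 3 genes every exposed value lay well below the lowest control. rnf180b, a ubiquitin ligase, was tight in both groups, at 0.25, 0.45 and 0.45 and -2.34, -1.99 and -2.19 (-2.56 ± 0.22, adjusted p = 7.66e-07). ssuh2.2 (-2.02 ± 0.21, adjusted p = 1.01e-05) and the lysophosphatidic acid receptor lpar2b (-2.0 ± 0.30, adjusted p = 0.000318) also fell. Genes of cell death were among the falls. xiap, an inhibitor of caspases, went from 0.17, 0.73 and -0.048 to -3.1, -1.91 and -2.23 (-2.7 ± 0.43, adjusted p = 0.000599), and the death receptor gene hdr from -0.27, 0.037 and -0.23 to -2.49, -2.17 and -2.28 (-2.16 ± 0.29, adjusted p = 0.0001). hdr was above background on 3 control arrays and on 1 exposed array. pycard, an adaptor of inflammasomes, fell from 1.67, 1.88 and 0.55 to -1.45, -0.75 and 0.059 (-2.08 ± 0.44, adjusted p = 0.0057), and caspa, a caspase of the same complexes, by less (-0.8 ± 0.19, adjusted p = 0.0118). birc2, another inhibitor of apoptosis, rose (1.11 ± 0.30, adjusted p = 0.0267), and pdcd4a, an inhibitor of translation, fell (-1.04 ± 0.28, adjusted p = 0.0275). In the apoptosis list 1 gene rose (3.3%) and 4 fell (13.3%) of 30, beside 5.17% and 3.6% of all genes. The list's median of 0.036 changed sign with median centring in place of loess, so the list as a whole had no direction. caspa did not pass without control replicate 2 or HgCl2 replicate 1 (adjusted p = 0.0693 to 0.0694), birc2 without control replicate 1 or 2 or HgCl2 replicate 1 (adjusted p = 0.0889 to 0.175), and pdcd4a without control replicate 1 or 2 or HgCl2 replicate 2 or 3 (adjusted p = 0.0626 to 0.133). Without control replicate 2, 2 genes of the list were lower and 0 higher.

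Of 51 genes of the cell cycle and DNA replication, 0 rose and 2 fell (3.9%), beside 5.17% and 3.6% of all genes. cdk1, the kinase of entry into mitosis, fell from 1.25, 0.93 and 1.21 to 0.059, -0.1 and -0.23 (-1.22 ± 0.23, adjusted p = 0.00217), with all exposed values below the controls. cdk2 fell on its brightest probe (-1.41 ± 0.42, adjusted p = 0.0403) and had 0.58 on the other, and the call was lost without control replicate 1 or 3 or HgCl2 replicate 1, 2 or 3 (adjusted p = 0.0771 to 0.125). ercc8, a DNA repair gene, fell from 1.02, 0.74 and 0.69 to -0.3, -0.57 and 0.015 (-1.1 ± 0.21, adjusted p = 0.00214). For gon4lb and snrnp200, a regulator of transcription and a helicase of the spliceosome, probes of 1 gene disagreed: the brightest fell by -2.13, adjusted p = 3.35e-05 and by -2.08, adjusted p = 0.0001, and the other gave -0.022 and -0.41.

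Among nuclear receptors, 3 of 50 rose (6%) and 3 fell (6%), beside 5.17% and 3.6% of all genes, with a median of -0.19. Without 1 array 2 to 4 rose and 1 to 4 fell (1 lower without control replicate 2 or HgCl2 replicate 1 or 2). rxrab, a shared partner of many nuclear receptors, rose from -0.85, -0.99 and -0.21 to 1.5, 1.05 and 0.99 (1.86 ± 0.33, adjusted p = 0.00145), and nrip1b, a corepressor of nuclear receptors, from -1.39, -1.11 and -1.28 to 0.31, 0.038 and -0.15 (1.32 ± 0.20, adjusted p = 0.000373). Both sets of exposed values were above all controls. epas1a, a hypoxia-inducible factor, rose from -1.08, -0.69 and -0.51 to 1.86, 0.73 and 0.65 (1.84 ± 0.40, adjusted p = 0.00698), but did not pass without HgCl2 replicate 1 (adjusted p = 0.0557). In Cy5 alone, neither rxrab (1.07, adjusted p = 0.109) nor epas1a (1.05, adjusted p = 0.134) was called. The kinase sgk1, which glucocorticoids induce, was at -1.98, -2.16 and -0.97 against 0.8, 0.39 and -0.52 (1.93 ± 0.47, adjusted p = 0.0143), and did not pass without control replicate 1 or 2 or HgCl2 replicate 1 (adjusted p = 0.0605 to 0.0828). Of genes of the lysosome and autophagy, 2 of 21 rose (9.5%) and 0 fell, beside 5.17% and 3.6% of all genes. Those that rose were npc1, which carries cholesterol out of lysosomes, and the protease ctsk. npc1 went from -0.78, -0.61 and -0.73 to 0.0042, 0.069 and 0.031 (0.74 ± 0.15, adjusted p = 0.00512). ctsk (1.55 ± 0.35, adjusted p = 0.00855) did not pass without control replicate 1 (adjusted p = 0.0532).

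**Figure D3:**
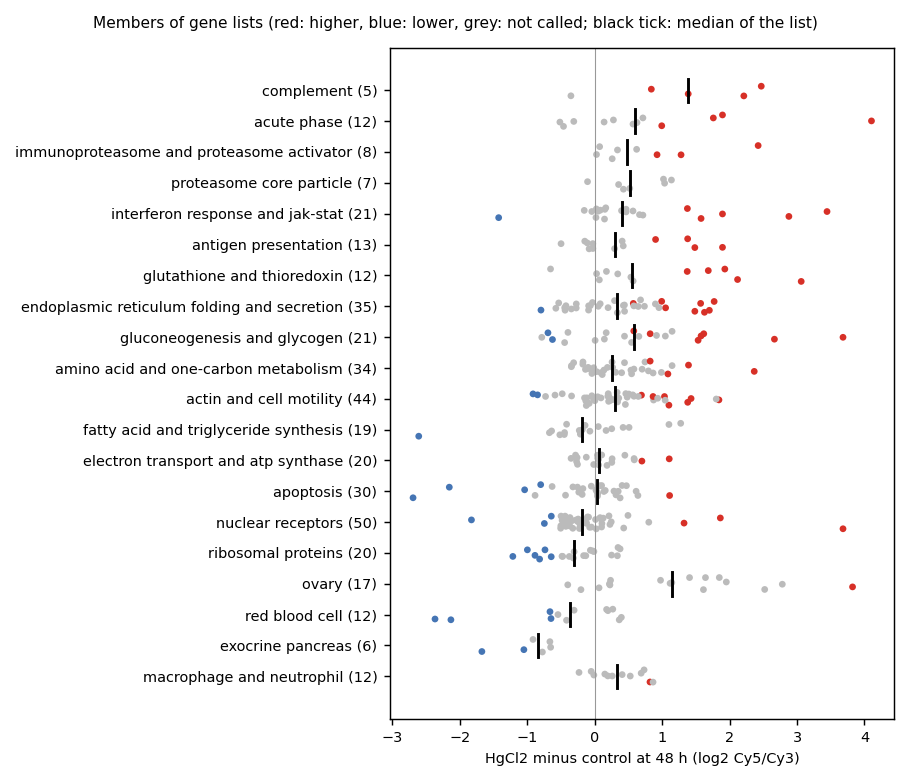
Each point is 1 gene of a list (rows, number measured in brackets) at its difference at 48 h (x axis, HgCl2 minus control, log2), red where called higher, blue where called lower and grey otherwise, and the black tick is the list's median. Complement and ovary have the highest medians, 1.39 and 1.14, but 4 of 5 complement genes and 1 of 17 ovary genes were called.

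Of the genes that oestrogen drives in the female liver, 3 fell. vtg3, a vitellogenin or egg yolk precursor, had recorded ratios of -0.012, 0.061 and -0.34 in controls and -3.43, -1.73 and -1.79 in exposed livers (adjusted p = 0.00213). Its Cy5 spots were at the scanner's limit on all 3 control arrays, so the size of the fall is not known. nots, a protease of the liver that oestrogen induces, fell from 1.68, 2.13 and 0.65 to -1.02, -0.68 and 0.22 (-1.97 ± 0.43, adjusted p = 0.00698). esr1, the oestrogen receptor of the liver, fell from 0.68, 0.76 and 0.48 to -1.23, -1.18 and -1.15 (-1.83 ± 0.49, adjusted p = 0.025), without overlap. Since the pools are of unknown sex, a different share of females cannot be told apart from the exposure for vtg3, nots and esr1 either. Over the whole list of 18 genes, which also holds egg coat genes, 1 rose (5.6%) and 3 fell (16.7%), beside 5.17% and 3.6% of all genes. Most of the list went the other way from the 3 falls, as 12 of the 18 had a positive difference and the median was 0.21. nots did not pass without control replicate 2 (adjusted p = 0.0511), and esr1 did not pass without control replicate 1 or 2 or HgCl2 replicate 1, 2 or 3 (adjusted p = 0.0508 to 0.0843). Without control replicate 2, 1 gene of the list was lower.

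Transcripts of eggs had positive differences, of which 1 passed the test. zp3a.1, an egg coat protein, rose from -0.32, -3.62 and -3.32 to 3.02, 0.45 and 0.74 (3.82 ± 1.04, adjusted p = 0.0266). Its relative zp3 had 0.73, -2.1 and -0.82 against 3.81, 0.86 and 1.48 (2.78, adjusted p = 0.0832), the cyclin ccnb1, stored in eggs, 0.81, -1.75 and -0.44 against 3.89, 1.04 and 1.26 (2.52, adjusted p = 0.0821), and the egg regulator zar1 0.32, -1.55 and -0.25 against 2.84, 0.45 and 0.77 (1.85, adjusted p = 0.0637). In each of these genes replicate 1 was the highest array of its group, and control replicate 1 was the control nearest to the exposed values, without overlapping them. Of 17 ovary markers, 15 were positive with a median of 1.14, and 12 were above background on all 6 arrays. Their mean log ratio was 0.164, -1.01 and -0.51 on the control arrays and 1.62, 0.157 and 0.56 on the exposed arrays, and these ranges overlap. From 0 to 5 of them were called without 1 array, with 5 without HgCl2 replicate 2 and 0 without control replicate 2 or 3 or HgCl2 replicate 1. Replicate 1 was also the highest array of both groups for other genes. nr3c1, the glucocorticoid receptor gene, was at 1.2, -2.83 and -1.69 in controls and 4.43, 1.71 and 1.58 in exposed livers on its brightest probe (3.68 ± 1.11, adjusted p = 0.0438), while its other probes gave -0.39 and -0.033. vwa1, an extracellular matrix protein, had -0.81, -2.59 and -2.61 and 2.02, 0.16 and 0.51 (2.9 ± 0.74, adjusted p = 0.0189), and -0.38 on its other probe. The rise of txnrd3, actb1 and fth1a likewise peaked in HgCl2 replicate 1, and control replicate 1 was the highest control for txnrd3 and actb1. The part of egg RNA in these values was not tested, and since the sex of the pools is not given, a different share of females or of attached ovary cannot be told apart from the exposure. zp3a.1 did not pass without control replicate 2 or 3 or HgCl2 replicate 1 (adjusted p = 0.0792 to 0.146), nr3c1 without control replicate 2 or 3 or HgCl2 replicate 1 or 2 (adjusted p = 0.0577 to 0.224), and vwa1 without control replicate 2 or 3 or HgCl2 replicate 1 (adjusted p = 0.0596 to 0.114). The testis list had 3 genes and 0 calls by limma (1 at an unadjusted p under 0.05).

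Some markers of blood and pancreas fell. The hemoglobin chains hbaa1 and hbba1 stood at 2.94, 3.1 and 3.05 and at 2.56, 2.71 and 2.2 in controls, and at -0.23, 0.95 and 1.28 and -0.56, 0.67 and 0.96 in exposed livers. HgCl2 replicate 1 was the lowest for both. klf1, a transcription factor of red cells, fell by less (-0.66 ± 0.19, adjusted p = 0.0364), with channel differences of -0.14 in Cy5 and 0.53 in Cy3, and its call was lost whichever array was left out (adjusted p up to 0.161, without control replicate 2). Of 12 red cell genes, 4 fell, 0 rose and 5 had a positive difference (median -0.36), so the list did not fall as a whole. The mean of the list was 0.4, 0.57 and 0.4 on control arrays and -0.2, 0.043 and 0.1 on exposed arrays. The count of lower genes was 2 to 3 without 1 array, with 2 without control replicate 2 or 3 or HgCl2 replicate 1 or 2. In such bulk samples, fewer cells of a type and less RNA in each cell cannot be told apart. Of 6 enzymes of the exocrine pancreas, which in zebrafish lies close to the liver, 2 fell and 0 were positive (median -0.85). The list's mean was 0.44, 0.82 and -0.22 on control arrays and -1.1, 0.19 and -0.92 on exposed arrays, and these ranges overlap. The carboxypeptidase cpa5 fell from 1.35, 1.59 and 0.2 to -1.35, -0.12 and -0.41 (-1.67 ± 0.40, adjusted p = 0.0138), but did not pass without control replicate 1 or 2 or HgCl2 replicate 1 (adjusted p = 0.0628 to 0.0931), and sycn.2, a secretory granule protein (-1.05 ± 0.29, adjusted p = 0.0294), did not pass without control replicate 2 or HgCl2 replicate 1 or 3 (adjusted p = 0.057 to 0.189). Without 1 array, 0 to 4 pancreas genes were lower, with 0 without control replicate 2 or HgCl2 replicate 1, 1 without control replicate 1 or HgCl2 replicate 3, and 4 without HgCl2 replicate 2.

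Markers of macrophages and neutrophils had a positive median of 0.33, and 1 of 12 was called, the pore-forming mpeg1.1 of macrophages, from -0.035, -0.011 and -0.12 to 0.93, 0.77 and 0.59 (0.82 ± 0.23, adjusted p = 0.0342). That call was lost without control replicate 1, 2 or 3 or HgCl2 replicate 1 or 2 (adjusted p = 0.0742 to 0.136). The list's mean was -0.027, 0.12 and -0.1 on control arrays and 0.5, 0.33 and 0.25 on exposed arrays, and its part in the interferon, antigen presentation and actin genes was not tested. lgals1l1, a galectin named after its values were seen, was above background on 0 control arrays and on 3 exposed arrays. It was at least 1.97-fold higher (adjusted p = 0.00461), where the control level is set to the higher of the probe's own value and the lowest signal counted as above background. In the authors' value table lgals1l1 was not called (adjusted p = 0.554). Its other probe gave 0.73 and was not called. In the lists of lymphocytes (7 genes), intestine (7) and bile duct, stellate and endothelial cells (17), limma called 0 genes (1, 1 and 4 at an unadjusted p under 0.05). Their medians were -0.15, -0.39 and 0.06, the last of which changed sign under other settings. The muscle list of 17 had 1 gene higher (5.9%), actc1b, and 1 lower (5.9%), beside 5.17% and 3.6% of all genes. The lower gene was the calcium buffer pvalb1 (-1.57 ± 0.35, adjusted p = 0.0075), which did not pass without control replicate 2 or HgCl2 replicate 1 (adjusted p = 0.0542 to 0.0598). Of 13 hepatocyte genes, 4 rose (30.8%) and 0 fell, with a median of 0.26. The hepatocyte list's mean was -0.067, -0.12 and -0.036 on control arrays and 0.49, 0.53 and 0.74 on exposed arrays. Without 1 array, 3 to 4 hepatocyte genes were called higher.

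Several other lists had few called genes, to be read beside 5.17% higher and 3.6% lower of all genes. Of 54 genes of Wnt signalling, 1 rose (1.85%) and 1 fell (1.85%). Of 39 genes of cytochrome P450 and conjugation, 3 rose (7.7%) and 3 fell (7.7%). The respiratory chain had 2 genes higher (10%) and 0 lower of 20, and the oxidation of fatty acids 1 (6.7%) and 1 (6.7%) of 15. Genes of cell adhesion had 2 higher (4.7%) and 1 lower (2.3%) of 43, and of the DNA damage response 1 (5.6%) and 1 (5.6%) of 18. Without 1 array the P450 counts ran from 0 to 2 higher (0 without control replicate 1 or 2, 1 without HgCl2 replicate 1 or 3) and 1 to 3 lower (1 without control replicate 1 or 2 or HgCl2 replicate 1), and respiratory chain genes from 0 to 2 higher (0 without control replicate 2 or HgCl2 replicate 1).

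Both channels of the called probes were compared, because a log ratio can move through either. The difference in Cy5, the liver, had the sign of the log ratio in 1341 of 1414 called probes, and it was larger in size than that of Cy3, the reference, in 1119 (79.1%). The median size was 0.89 in Cy5 and 0.32 in Cy3 among called probes. Over all probes it was 0.36 and 0.30, so the reference moved about as much in called probes as elsewhere. In probes that rose, the median reference difference was -0.20, and in those that fell it was 0.0017. Tested in Cy5 alone, an alternative added after the data were seen, 1444 probes were called, of which 546 were shared with the calls from log ratios and 543 of these had the same direction. The calls of canx and caspa, for example, were not made in Cy5 alone (adjusted p = 0.263 and 0.314).

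**Figure D4:**
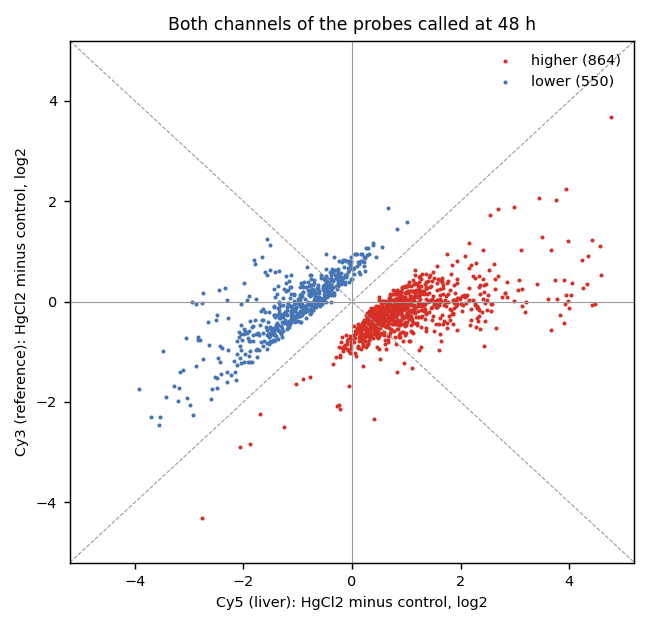
For the 1414 called probes, the difference of normalized log2 intensity between exposed and control arrays in Cy5 (liver, x axis) and in Cy3 (common reference, y axis), red for 864 higher and blue for 550 lower, with dashed lines where both are equal in size. Most points (79.1%) lie where the Cy5 difference is the larger, and a minority moved more in the reference.

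The effects at 24, 48 and 96 h, which share no arrays, were set against each other gene by gene. Between 24 and 48 h the effect changed for 1 probe (0.00612%), and between 48 and 96 h for 0 (0%) in limma, while 861 and 877 probes passed at an unadjusted p under 0.05. The 1 probe has no gene symbol. Many differences that were near 0 at 8 h were present at 24 h. In the order of the times, psme1 had -0.07 ± 0.29, 1.67 ± 0.29, 2.42 and 2.01 ± 0.29, and mgst3b had -0.23 ± 0.51, 2.38 ± 0.51, 3.06 and 2.47 ± 0.51. cth stood out by its step from 24 to 48 h, with 0.34 ± 0.46, then 2.37 and 1.78 ± 0.46 at 96 h, and nrip1b by 0.46 ± 0.20, then 1.32 and 0.71 ± 0.20. The change from 24 to 48 h did not pass for either (adjusted p = 0.916 and 0.916). igfbp1a went the other way, with 2.81 ± 0.48, 3.68 ± 0.48, 1.62 and 2.71 ± 0.48 at the successive times, a change from 24 to 48 h with adjusted p = 0.916. chst6 was at -2.1 ± 0.33 after 24 h, -2.92 after 48 h and -4.64 ± 0.33 after 96 h, with adjusted p = 0.83 for the change from 48 to 96 h. List medians at 24, 48 and 96 h were 1.43, 1.39 and 2.06 for complement, 0.3, 0.33 and 0.68 for the endoplasmic reticulum, and -0.17, -0.31 and -0.44 for ribosomal proteins. For the ovary they were 1.47, 1.14 and 0.71.

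**Figure D5:**
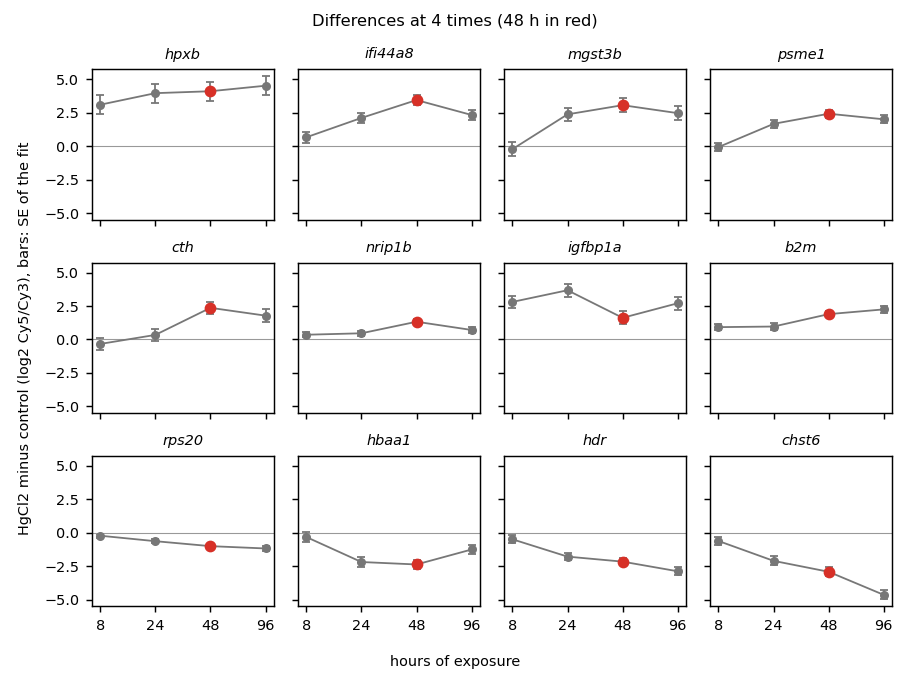
HgCl2 minus control (log2, y axis) ± the standard error of the fit for 12 genes at 8, 24, 48 (red) and 96 h (x axis), n = 3 arrays in each group at each time. Differences such as that of psme1 are near 0 at 8 h (-0.07) and stand at 2.42 at 48 h, while igfbp1a is at 3.68 at 24 h and 1.62 at 48 h.

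Most called probes have no gene symbol, since 311 of the 864 that rose and 207 of the 550 that fell carry 1. The 3 largest rises without a symbol were probes 5285617, 5273319 and 5282970. Probe 5273319 had -0.79, -0.25 and -0.76 in controls and 3.69, 4.11 and 3.85 in exposed livers (4.48 ± 0.35, adjusted p = 3.38e-07), so that the groups were far apart. Probe 5285617 was high on HgCl2 replicates 2 and 3 only, with -0.75, -1.3 and -0.71 against -0.4, 4.69 and 6.52 (4.53 ± 1.04, adjusted p = 0.00986), and did not pass without HgCl2 replicate 3 (adjusted p = 0.0512). Probe 5282970 was highest on replicate 1 in both groups, like the mean of the ovary markers, at 1.12, -3.39 and -2.65 and 4.39, 1.89 and 1.8 (4.34 ± 1.22, adjusted p = 0.0318), and did not pass without control replicate 2 or 3 or HgCl2 replicate 1 (adjusted p = 0.0915 to 0.162). At least 1 spot of each of the latter pair was at the scanner's limit. The largest falls were probe 5277696, from 1.37, 1.45 and 0.73 to -1.9, -1.56 and -1.78 (-2.93 ± 0.44, adjusted p = 0.000338), probe 5283406 (-2.74 ± 0.42, adjusted p = 0.000426) and probe 5270981 (-2.63 ± 0.29, adjusted p = 1.67e-05). These 3 falls kept their calls whichever array was left out.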

How the data were processed

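Liver mRNA of control and HgCl2-exposed zebrafish was measured on 2-colour glass oligonucleotide arrays. Groups and times were taken from the sample labels, and dose, pooling and husbandry from the methods. The intensities, as deposited, are GenePix foreground and local background values of each spot, with no normalization. The log2 values of the authors' table, as deposited, are background-subtracted ratios of means times 1 constant for each array. The methods state lowess, which these values do not carry, so they served as an alternative only.

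From the intensity medians, background was corrected by normexp (offset 50) and each array was normalized by loess, giving weight 0 to the 172 control spots of beta-actin, which were not tested (limma 3.58.1, R 4.3.3). A fit of 8 group means over 24 arrays left 16 residual degrees of freedom. Contrasts were tested by limma's moderated test, with Benjamini-Hochberg adjustment over 16340 probes and a threshold of 0.05. A spot was above background when its median exceeded the local background by 2 SD, and saturated at 65535. Probe names came from the platform annotation, which gave 1 symbol to 6088 of 16512 spots, several to 75 and none to 10349, and 6019 of the spots matched a RefSeq gene ID. Each gene is shown by its brightest probe. Named genes are the 20 largest rises and falls without overlap of groups, up to 6 members of each gene list by smallest p, genes the study names, and the 3 largest rises and falls without a symbol. The members and lists were chosen with earlier results of these data known. Lists were described by counts and medians, with no set test. In simulated data, the fit recovered 1, 20, 40 and 47 of 50 probes changed by 0.5, 1, 1.5 and 2 on the log2 scale and called 3 of 16140 unchanged ones. Alternatives for background, normalization, filter, weights, samples and test are given in the closing section. The promoter search that had been planned was not run here.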

Additional observations from a re-analysis of the deposited data

Results flagged for a closer look

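For probe 5285553, which has no gene symbol, the effect at 48 h minus that at 24 h was 3.70 (adjusted p = 0.0113 in limma, n = 3 arrays in each group), the only probe whose effect changed between these times. Its controls at 24 h stood at 2.82, 3.49 and 3.70, while its controls at 48 h were at -0.54, -0.15 and -0.55 and its exposed arrays at 48 h at -0.10, -0.22 and -0.16. The change thus lay in the controls of 24 h and not in the livers at 48 h. For sycn.2, of the exocrine pancreas, the difference was -1.05 at 48 h and 0.70 at 8 h. All exposed values lay below all controls at 48 h and above all controls at 8 h. The difference between these effects was not tested. The beta-actin control spots, which entered no comparison, had a mean log ratio 0.906 higher on exposed than on control arrays at 48 h, with a mean of 0.29 ± 0.39 (SD, n = 3) in controls and 1.197 ± 0.37 (SD, n = 3) in exposed livers.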

How the results depend on the processing

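Of 864 higher and 550 lower probes, the authors' value table gave 407 higher, and 447 when centred. The 48 h arrays alone gave 300 lower, array weights 865 lower, and the 12 controls pooled 1563 higher and 951 lower. The methods' t-test gave 1667 higher and 1465 lower unadjusted, and 1 higher and 1 lower after Benjamini-Hochberg. An unadjusted p under 0.05 in limma, added after the data were seen, gave 2246 and 1734. Leaving out 1 array gave 368 to 739 higher and 235 to 603 lower. Apart from the 265 lower probes under a replicate block, all other alternatives for these counts stayed within 1.5 times. In the authors' value table, 1412 of the 1414 called probes kept their sign but 729 kept their call. The labels do not state whether pools of the same replicate number belong together. Deviations of same-numbered arrays correlated with r of 0.189, 0.092 and 0.080, and those of differently numbered arrays with r between -0.160 and 0.061. A replicate block within the 48 h arrays alone gave 760 higher and 265 lower. The same arrays without the block gave 600 and 300. These values do not settle whether the pools are paired. The change of effect from 24 to 48 h was called for 0 probes without background correction and 0 in the value table, for 861 unadjusted, and for 0 to 4 when 1 array was left out. From 48 to 96 h it was 1 in the value table, 877 unadjusted and 0 to 8 when 1 array was left out. Of 112 called genes and probes followed across the settings, 60 kept their call whichever array was left out and 52 lost it at least once. The 112 include apom and tdh, which are not described above and are among those that lost it. Of the same 112, 35 were not called in the authors' value table, 42 in Cy5 alone and 110 in the methods' t-test after Benjamini-Hochberg. psmb7, a core proteasome subunit that was not called (0.52, adjusted p = 0.143), reversed to -0.16 in the Cy5 channel alone. Dim spots limit the ratios of many probes, as 33.6% to 79.1% of reference spots were above background. Leaving out probes above background in Cy5 on fewer than 3 of the 6 arrays ended 0 of the 111 calls that remained testable. That filter did not use the reference, so the effect of dim reference spots was not tested. The cause of these differences was not tested.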
